A study of Homo sapiens with 34 samples.

Results

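The chemokine and lymphocyte homing receptors examined here are 9 genes taken by their symbols from the tables of the study: *CXCR4*, *CCR7*, *CXCR5*, *CXCR3*, *S1PR1*, *S1PR4*, *GPR183*, *SELPLG* and *CD44*. They are 9 of the 17587 genes that at least 1 of the 6 tables lists. RNA was sequenced from 3 human B-ALL (B-cell acute lymphoblastic leukemia) cell lines grown in culture without stroma or endothelium, BV-173 with the label BCR-ABL, NALM-6 with ETV6-PDGFRB and RS4;11 with MLL-AF4. In each line, cells transduced with a lentiviral shRNA against *CCND3* and sorted on day 4 were compared with cells given scrambled shRNA in the same vector, and cells kept for 3 days in 1 µM palbociclib, an inhibitor of the kinases CDK4 and CDK6, were compared with cells given DMSO. The 12 groups held 34 samples, 3 in most groups and 2 in the DMSO group of BV-173 and the *CCND3* shRNA group of NALM-6. The knockdown rests on 1 shRNA construct, and nothing in the sources says that the samples of a group came from separate cultures.

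Each table gives 1 level per gene and group, scaled by the authors within the pair of groups and not divided by transcript length. The spread between samples and the depth are therefore unknown, no value carries an SD over samples, and no difference within a line was tested. A gene is counted here where its levels differed at least 1.5-fold, which is 0.58 on the log2 scale. The cell lines were the unit over which means ± SD (n = 3 lines) were taken, and an exact sign permutation over 3 lines cannot give a p below 0.25. Levels are set against each other across lines only after all 12 groups were put on one scale (median of ratios over the 13307 genes listed in all 6 tables).

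Homing receptors decide where a lymphocyte goes. Chemokine receptors, the receptors for sphingosine 1-phosphate (S1P) and *GPR183* couple to G proteins and steer the cell along gradients of their ligands, while *SELPLG* and *CD44* carry the sugar or hyaluronan contacts that slow it on a vessel wall or hold it in a niche. CXCR4 keeps normal and leukemic B-cell precursors in the bone marrow, CCR7 and CXCR5 lead to the T- and B-cell zones of lymph nodes, and S1PR1 serves exit from tissue into blood. In mature lymphocytes, the transcription factors FOXO1 and KLF2 are known to maintain *S1PR1* and *CCR7*.

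The genes lie on 8 chromosomes in GRCh38.p14: *CXCR4* on chromosome 2 (136114349 to 136118149, minus strand), *S1PR1* on 1 (101236899 to 101242313), *CD44* on 11 (35139171 to 35232402) with *CXCR5* on the same chromosome (118883892 to 118897787), *SELPLG* on 12 (108621895 to 108633894), *GPR183* on 13 (99294539 to 99307399, minus strand), *CCR7* on 17 (40553769 to 40565472), *S1PR4* on 19 (3178769 to 3180332) and *CXCR3* on X (71615919 to 71618511, minus strand). RefSeq promoter windows (GRCh38.p14, read on the strand of the gene) were matched for 7 of the 9 genes, without *CCR7* and *SELPLG*. The strand of *CCR7* and *SELPLG* is not given above. The bases just before the annotated gene are shown for the member with the highest level per length in most groups (*CXCR4*, chr2:136118150-136118399), the member with the largest ratio in a single line after knockdown (*S1PR1* in NALM-6, chr1:101236769-101236898) and the member that was higher in all 6 comparisons (*CD44*, chr11:35138921-35139170). Capitals mark the TATA box word TATAAA, which begins 30 bases before the *CXCR4* start.
CXCR4: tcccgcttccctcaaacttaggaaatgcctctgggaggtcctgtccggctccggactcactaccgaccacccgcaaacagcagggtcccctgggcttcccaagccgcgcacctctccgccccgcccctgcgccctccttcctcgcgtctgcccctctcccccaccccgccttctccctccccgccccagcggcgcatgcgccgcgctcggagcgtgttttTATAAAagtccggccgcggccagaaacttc
S1PR1: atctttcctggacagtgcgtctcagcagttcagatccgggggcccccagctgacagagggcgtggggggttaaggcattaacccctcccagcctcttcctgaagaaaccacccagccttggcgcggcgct
CD44: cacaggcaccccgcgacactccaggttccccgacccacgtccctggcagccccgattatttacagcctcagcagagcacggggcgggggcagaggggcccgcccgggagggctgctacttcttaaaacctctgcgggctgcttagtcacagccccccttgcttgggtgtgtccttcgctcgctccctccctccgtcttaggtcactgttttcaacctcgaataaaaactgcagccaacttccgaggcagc
All 3 stretches are rich in G and C (68.0%, 62.3% and 62.4%). The word TATAAA was found on either strand of the stretch before the start in 2 of the 7 genes, *CXCR4* and *GPR183*, and in 10.7% of all 35116 windows. This stretch holds at most 250 bases, and the part shown for *S1PR1* holds 130. The FOXO word GTAAACA was found in none of the 7 genes and in 2.98% of all windows. The E2F words TTTCGCGC and TTTGGCGC were found in none of the 7 and in 0.439% and 0.550% of all windows. None of these words contains another, and a missing word says only that these letters are not in this window.

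Of the 27 pairs of member and line, 26 were listed for the knockdown and 25 for palbociclib. After *CCND3* knockdown, 11 pairs were at least 1.5-fold higher and 0 were lower. After palbociclib, 11 were higher and 2 lower. In bulk RNA, a change in every cell and a change in the share of cells that express a gene cannot be told apart. No test stands behind these counts, and each is read below against the share of all listed genes that lay as far in the same table.

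In NALM-6, 3 of 8 listed members were higher after knockdown, against 7.82% of all 15409 listed genes, and none was lower, against 8.47%. RS4;11 had 6 of 9 higher, against 9.73%, and none lower, against 9.72%. BV-173 had 2 of 9 higher, against 3.32%, and none lower, against 4.78%. After palbociclib, 5 of 7 listed members were higher in NALM-6, against 21.4% of all genes, and none lower, against 14.9%. Only 3 of these 7 had a level of 10 or more in both groups. The DMSO levels of *CCR7*, *CD44* and *SELPLG*, all counted as higher, were 4.60, 2.40 and 0.957. Among NALM-6 genes with a mean level (geometric) from 1 to 10, 61.2% were past 1.5-fold in either direction after palbociclib. The count is thus not read as particular to these receptors. In RS4;11, 3 of 9 were higher, against 16.7%, and 2 of 9 were lower, against 15.0%. In BV-173, 3 of 9 were higher, against 13.6%, and none was lower, against 11.9%. The median log2 ratio of the listed members ranged from 0.21 to 0.65 after knockdown and from 0.07 to 1.24 after palbociclib, beside medians from -0.01 to 0.06 over all listed genes.

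*CCND3* itself checked the labels: its level after knockdown was 20.7% to 31.1% of the scrambled control. After palbociclib it was between 76.0% and 81.8% of the DMSO level. No table lists a level of 0, and the ratios of scarce genes are narrow: among genes with a mean level (geometric) under 1, at most 15.3% were past 1.5-fold in a table, against 18.1% to 59.7% of the genes between 10 and 100. A ratio near 0 at such a level is therefore not evidence of a stable gene.

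**Figure D1:**
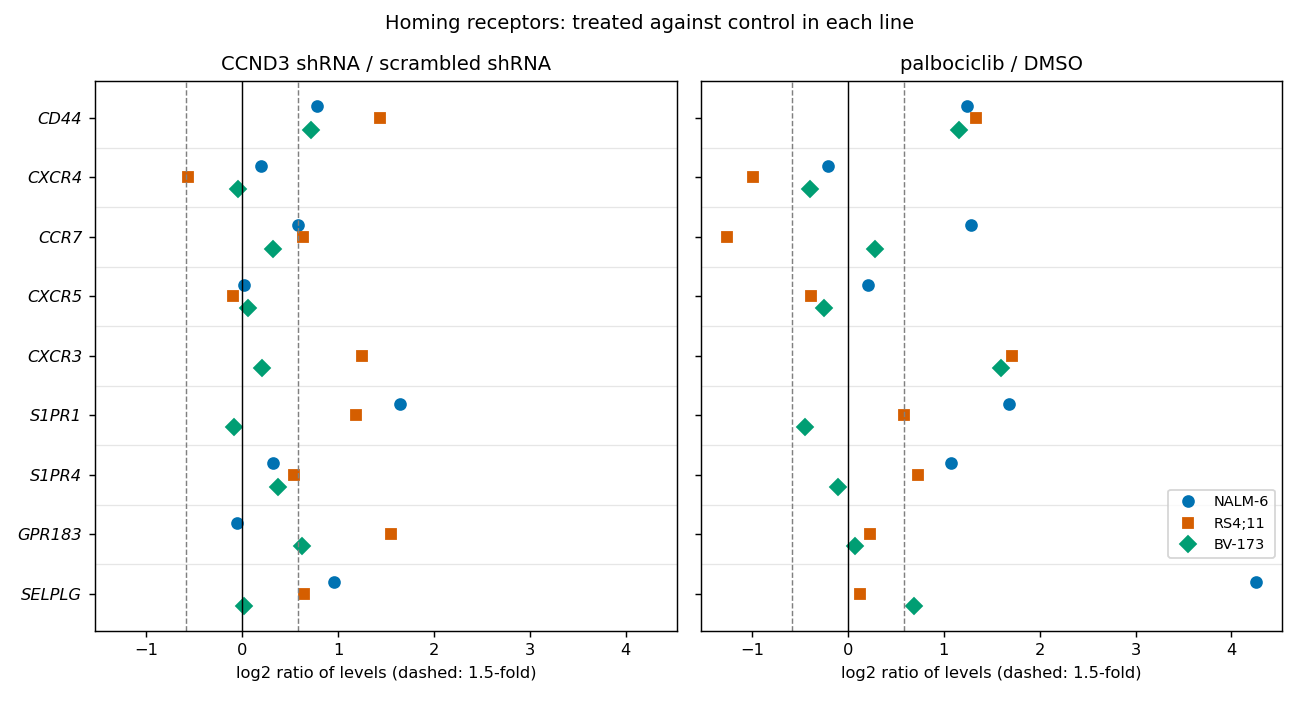
Log2 ratio of the treated to the control level for the 9 receptors (rows) in the 3 lines (symbols as in the key), after knockdown (left) and palbociclib (right), with dashed lines at 1.5-fold. Each point is 1 ratio of 2 group levels and carries no error. The *CD44* points lie to the right of the dashed line in both panels, the *CCR7* points spread from -1.26 to 1.28 after palbociclib, and *SELPLG* in NALM-6 reaches 4.26.

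*CD44*, the hyaluronan receptor of leukocytes, was the only member more than 1.5-fold higher in all 6 comparisons. In RS4;11 its level was 1890 with scrambled shRNA and 5110 with *CCND3* shRNA, and 1319 with DMSO and 3338 with palbociclib. BV-173 had 1944 and 3192 for the knockdown pair, and 3128 and 7007 for the palbociclib pair. The levels of NALM-6 were 2.41 and 4.15, and 2.40 and 5.66. NALM-6 thus stood apart, with *CD44* far below both other lines. The mean log2 ratio was 0.98 ± 0.40 (SD, n = 3 lines) after knockdown and 1.25 ± 0.09 after palbociclib, higher in 3 of 3 lines each time. In RS4;11, 1.21% of the other listed genes were at least as far up after knockdown and 3.68% after palbociclib, and in BV-173 these shares were 1.69% and 3.34%. In NALM-6 they were 4.18% and 8.10%, and among the 1153 genes of like level (within 2-fold of its mean) 27.6% were as far up after palbociclib. The control mattered in BV-173: on one scale *CD44* was 3352 with *CCND3* shRNA and 3317 with DMSO, so that the knockdown ratio of 0.72 on the log2 scale would be 0.02 against the other control.

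The genes around CD44 did not follow it as a group. The list of 16 hyaluronan enzymes and CD44 partners held 15 genes listed in all lines, of which 0 were past 1.5-fold higher and 1 lower in all 3 lines after knockdown, and 3 higher and 3 lower after palbociclib. The median of their mean log2 ratios was 0.19 and 0.21. Over all genes listed in all lines, 0.584% were higher and 1.75% lower in all 3 lines after knockdown (median 0.00, 13877 genes), and 4.53% and 5.95% after palbociclib (median 0.04, 13788 genes).

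*CD74*, the MHC class II invariant chain that also forms a receptor complex with CD44, was higher in all lines after palbociclib, with a mean log2 ratio of 1.32 ± 0.03 (SD, n = 3 lines). After knockdown it was 34358 and 27731 in NALM-6, a log2 ratio of -0.31, against 0.62 in BV-173 and 0.90 in the remaining line. The ezrin and radixin genes, whose proteins tie the tail of CD44 to actin, were lower after palbociclib: the mean log2 ratio was -1.27 ± 0.11 for *RDX* and -0.73 ± 0.07 for *EZR*. *MSN*, which encodes moesin, the third protein of that family, had log2 ratios from -0.23 to 0.07 after palbociclib and from -0.37 to 0.09 after knockdown.

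*HMMR*, another hyaluronan receptor and a protein of the mitotic spindle, was lower in all 6 comparisons. Its mean log2 ratio was -1.24 ± 0.40 after knockdown and -3.51 ± 1.67 after palbociclib, and in RS4;11 its level was 1886 with DMSO and 45.4 with palbociclib. *HAS3*, a hyaluronan synthase, and *HYAL3*, of the hyaluronidase family, were both higher after palbociclib (1.75 ± 0.47 and 1.81 ± 0.39). With DMSO and palbociclib *HAS3* was 19.9 and 76.3 in NALM-6, 8.32 and 19.3 in RS4;11, and 8.62 and 36.9 in BV-173. Among genes with a mean level (geometric) from 10 to 100, 46.8% to 59.7% per line were past 1.5-fold in either direction after palbociclib. After knockdown *HAS3* lay between -0.07 (BV-173) and 0.83 (NALM-6). *EZR* and *MSN* are named here outside the rule for list genes, after their values were seen.

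**Figure D2:**
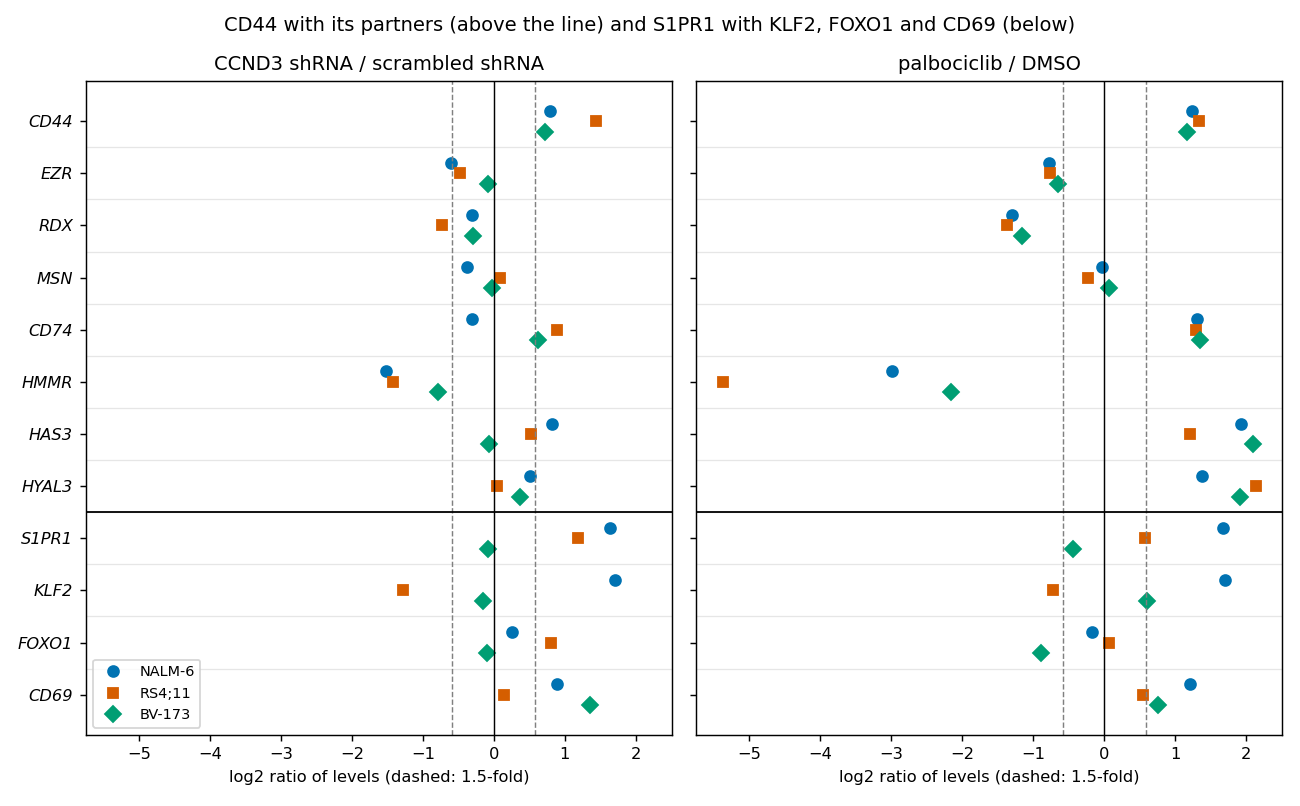
Log2 ratio of treated to control levels in the 3 lines (symbols as labelled, dashed lines at 1.5-fold) after knockdown (left) and palbociclib (right) for *CD44* with 7 partner genes above the black line and for *S1PR1* with *KLF2*, *FOXO1* and *CD69* below it. After palbociclib the points of each partner gene lie close together for *CD74* (from 1.30 to 1.36), *EZR* and *RDX*, whereas *KLF2* lies at 1.70 in NALM-6 and -0.72 in RS4;11.

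*CXCR4*, the receptor for the marrow chemokine CXCL12, had the highest level per kilobase of transcript of the 9 members in 11 of the 12 groups. The exception was RS4;11 with palbociclib, where *S1PR4* stood at 887 and *CXCR4* at 846 per kilobase. The level in NALM-6 was 19194 with scrambled and 21943 with *CCND3* shRNA, and 16754 with DMSO and 14532 with palbociclib. RS4;11 had 3703 and 2506, and 2838 and 1432. BV-173 had 5744 and 5564, and 3659 and 2777. *CXCR4* was thus lower with palbociclib in all 3 lines, with a mean log2 ratio of -0.53 ± 0.41, and past 1.5-fold lower in RS4;11 alone (1.98-fold, where 7.20% of the other genes were as far down).

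After knockdown the log2 ratio of *CXCR4* was 0.19 in NALM-6, -0.05 in BV-173 and -0.56 in RS4;11, a mean of -0.14 ± 0.39. Within each line the knockdown ratio was higher than the palbociclib ratio by a similar amount, 0.40, 0.42 and 0.35, with a mean difference of 0.39 ± 0.04 (SD, n = 3 lines). This difference rests on separate controls for the 2 treatments. *CXCR4* was higher in the scrambled than in the DMSO control in all 3 lines (log2 difference 0.13, 0.42 and 0.62), and with the controls exchanged the mean difference was 1.16.

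*CCR7*, the receptor for CCL19 and CCL21, was the member whose direction after palbociclib differed most between lines. With DMSO and palbociclib its level was 4.60 and 11.2 in NALM-6, 10.6 and 12.9 in BV-173, and 60.3 and 25.2 in RS4;11. It was thus 2.43-fold higher in NALM-6 and 2.40-fold lower in RS4;11. Among genes of like level, 26.8% were as far up in NALM-6 and 7.24% as far down in RS4;11. With scrambled and *CCND3* shRNA it was 11.0 and 16.4 in NALM-6, 73.8 and 115 in RS4;11, and 18.0 and 22.5 in BV-173, higher in 3 of 3 lines with a mean log2 ratio of 0.51 ± 0.17. The ratio in NALM-6, 1.496-fold, lay just under the threshold, and that in RS4;11, 1.55-fold, just over it. On one scale the scrambled control of NALM-6 was 2.27-fold above its DMSO control, and the palbociclib group (11.1) lay close to the scrambled control (10.1), so that the log2 ratio of 1.28 would be 0.14 against the other control. In RS4;11 it would be -1.52 instead of -1.26.

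*CXCR3*, a receptor for the interferon-induced chemokines CXCL9, CXCL10 and CXCL11, was not listed in NALM-6. Its level in RS4;11 was 98.3 with scrambled and 234 with *CCND3* shRNA, and 22.2 with DMSO and 72.6 with palbociclib. The BV-173 values were 26.0 and 30.1, and 18.2 and 55.2. The ratios of both lines were close after palbociclib (3.27-fold and 3.03-fold higher, where 1.89% and 1.30% of the other genes, and 6.28% and 7.11% of those of like level, were as far up), while after knockdown they were 2.38-fold and 1.16-fold. In RS4;11 the scrambled control was 4.52-fold above the DMSO control on one scale, and the palbociclib group (71.3) lay under the scrambled control (94.8).

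*CXCR5*, which guides mature B cells to follicles, stayed under a level of 1 in all 12 groups, from 0.157 in NALM-6 with DMSO to 0.990 in NALM-6 with *CCND3* shRNA. Its ratios lay between -0.38 and 0.21 on the log2 scale. No difference can be read at these levels.

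The ligands of these receptors and of the selectin ligand PSGL-1 were near the bottom of the tables. Of 9 ligand genes, 6 were listed in at least 1 table, and the highest level of any was 0.542. *CXCL12* was listed in 1 table only, at 0.197 and 0.210. None of the 4 listed ligand pairs was past 1.5-fold after knockdown and none of 7 after palbociclib. Among all genes with a mean level (geometric) under 1, 0% to 1.00% per line were past it after knockdown. After palbociclib 0.527% to 15.3% were, so nothing can be read from these ligand counts. Of 19 other chemokine receptors, 17 were listed in at least 1 table. Only 8 were listed in all lines for the knockdown and 12 for palbociclib, and none of these was past 1.5-fold in the same direction in all lines. Of all genes so listed, at most 1.75% were past it in 1 direction after knockdown and 5.95% after palbociclib. Over single lines, 4 of 38 pairs were higher and 2 lower after knockdown (median of means 0.07), and 12 of 44 were higher and 1 lower after palbociclib (0.26). Over all genes of a table, 3.32% to 9.73% were higher and 4.78% to 9.72% lower after knockdown, and 13.6% to 21.4% and 11.9% to 15.0% after palbociclib.

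*S1PR1*, the receptor through which lymphocytes leave tissue toward the S1P of blood, was higher after both treatments in NALM-6. Its level there was 152 with scrambled and 474 with *CCND3* shRNA, and 116 with DMSO and 373 with palbociclib. RS4;11 had 46.5 and 106, and 39.0 and 58.4. BV-173 had 17.2 and 16.2, and 7.97 and 5.85. The ratios thus ran from NALM-6 (3.12-fold and 3.21-fold higher after knockdown and palbociclib) over RS4;11 (2.27-fold and 1.495-fold) to BV-173, where the log2 ratios were -0.08 and -0.44. In NALM-6, 0.402% of the other listed genes were as far up after knockdown and 4.14% after palbociclib. The mean over lines after knockdown, 0.91 ± 0.89, was about as large as its SD, and that after palbociclib, 0.61 ± 1.06, was smaller than its SD. The NALM-6 ratios kept their direction with the other control: on one scale they were 1.99 after knockdown against DMSO and 1.41 after palbociclib against the scrambled control. In BV-173 they were 1.01 and -1.49, where the knockdown ratio against its own control was -0.08, and the mean over lines was 1.51 after knockdown and 0.09 after palbociclib.

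*S1PR4*, the S1P receptor typical of blood cells, had a second place per kilobase in 9 of the 12 groups. Its level in NALM-6 was 846 with scrambled and 1060 with *CCND3* shRNA, and 625 with DMSO and 1320 with palbociclib. RS4;11 had 917 and 1332, and 864 and 1430. BV-173 had 1453 and 1889, and 1659 and 1541. It was higher after knockdown in 3 of 3 lines by a similar and small amount (log2 ratios of 0.32, 0.54 and 0.38, mean 0.41 ± 0.11), none of it past 1.5-fold. After palbociclib NALM-6 was 2.11-fold and RS4;11 1.66-fold higher, and BV-173 had a log2 ratio of -0.11.

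The other 13 genes of the S1P pathway held 11 listed in all lines. None of them was past 1.5-fold in the same direction in all lines after knockdown (median of means 0.13), and after palbociclib 1 was higher and 0 lower (0.51). That gene was *SGPP2*, an S1P phosphatase, with a mean log2 ratio of 1.17 ± 0.47. With DMSO and palbociclib it was 17.7 and 35.5 in NALM-6, 11.6 and 20.3 in RS4;11, and 26.8 and 87.1 in BV-173. The scrambled controls of these lines were 39.4, 15.1 and 72.2 (as deposited). After knockdown the log2 ratio of *SGPP2* was -1.38 in BV-173, -0.16 in RS4;11 and 0.21 in NALM-6. Of all genes listed in all lines, 0.584% were higher and 1.75% lower after knockdown, and 4.53% and 5.95% after palbociclib. *CD69*, whose protein pulls S1PR1 from the cell surface, was above its control in every comparison. Its log2 ratio was 0.89 and 1.21 (knockdown and palbociclib) in NALM-6, 1.35 and 0.76 in BV-173, and 0.15 and 0.55 in RS4;11. *CD69* was named after its values were seen.

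Of 9 genes for transcription factors of homing genes, all listed, none was past 1.5-fold in the same direction in all lines (median of means -0.04 after knockdown and -0.33 after palbociclib). At most 1.75% of all genes listed in all lines were so in 1 direction after knockdown and 5.95% after palbociclib, which 0 of 9 is near. After palbociclib *PAX5*, *EBF1*, *HIF1A* and *FOXP1* had log2 ratios under 0 in all lines, from -0.96 to -0.07, and *IKZF1* had 0.13 to 0.49. *KLF2* was higher in NALM-6, from 67.8 to 222 between scrambled and *CCND3* shRNA and from 50.1 to 163 between DMSO and palbociclib, log2 ratios of 1.71 and 1.70 beside 1.64 and 1.68 for *S1PR1*. In RS4;11, where *S1PR1* had 1.18 and 0.58, *KLF2* was lower, with -1.27 and -0.72. In BV-173 *KLF2* had -0.16 and 0.60 beside -0.08 and -0.44. The control mattered for *KLF2*, by levels as deposited. In RS4;11 it was 166 with scrambled shRNA and 58.0 with DMSO, so the *CCND3* shRNA group (68.8) lay between both controls. The palbociclib group there (35.3) lay below both. In BV-173 the palbociclib group (206) lay between DMSO (135) and scrambled shRNA (237). In NALM-6 both treated groups lay above both controls. *FOXO1* lay between -0.90 (BV-173, palbociclib) and 0.81 (RS4;11, knockdown). All these factors were chosen for naming after their values were seen.

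*GPR183* (EBI2), which responds to oxysterols made by stromal cells, was higher after knockdown in the lines that list it above a level of 1. In RS4;11 it was 18.9 with scrambled and 55.4 with *CCND3* shRNA, 2.93-fold higher, where 0.941% of the other genes and 3.83% of those of like level were as far up. BV-173 had 6.17 and 9.52, 1.54-fold higher. With DMSO and palbociclib it was 2.76 and 3.24 in RS4;11 and 0.595 and 0.624 in BV-173, so both groups of the palbociclib experiment lay below both groups of the knockdown experiment. In NALM-6 it was 0.201 and 0.193 for the knockdown pair, and it was not listed for palbociclib. Of the 4 enzymes of its ligand, 2 were listed in all lines and none was past 1.5-fold in all of them (medians of means 0.24 and 0.19). With 2 genes this count says little. *HSD3B7*, the most abundant of the 4, reached 175 in BV-173 with *CCND3* shRNA, from 105 with scrambled shRNA.

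*SELPLG* encodes PSGL-1, the protein that carries the ligand of the selectins. Its level in NALM-6 was 15.6 with scrambled and 30.3 with *CCND3* shRNA, and 0.957 with DMSO and 18.3 with palbociclib. RS4;11 had 19.5 and 30.6, and 11.5 and 12.5. BV-173 had 3.97 and 4.02, and 0.784 and 1.26. The 19.1-fold ratio after palbociclib in NALM-6 was the largest of any member, and 0.0384% of the other genes were as far up. It rests on a DMSO level under 1. On one scale the scrambled control of NALM-6 (14.3) was 15.5-fold above its DMSO control (0.922) and near the palbociclib group (18.1), and against the scrambled control the log2 ratio of 4.26 would be 0.34. After knockdown *SELPLG* was 1.94-fold higher in NALM-6 and 1.57-fold higher in RS4;11, and the mean log2 ratio was 0.54 ± 0.48 over the 3 lines. After palbociclib the mean was 1.69 ± 2.24, and 0.50 with a pseudocount of 10.

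PSGL-1 binds selectins only once it carries the right sugars. Of 11 genes for these sugars, all listed in all lines, 0 were higher and 1 lower past 1.5-fold in all 3 lines after knockdown (median of means -0.06), and 0 and 0 after palbociclib (0.18). The lower gene was *C1GALT1*, which builds the core of the sugar chain, with a mean log2 ratio of -0.79 ± 0.09 after knockdown. After palbociclib its log2 ratios lay between -0.57 and -0.39. Beside these counts, 0.584% of all genes listed in all lines were higher and 1.75% lower after knockdown, and 4.53% and 5.95% after palbociclib.

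Downstream of the receptors, 19 genes for G proteins, their regulators and desensitization were examined. After knockdown 1 was higher and 0 lower in all lines of the 18 listed there (median of means 0.21), and after palbociclib 2 were higher and 0 lower of 17 (-0.02). The first was *RGS1*, which shortens chemokine receptor signals, at 3503 and 7262 in RS4;11, 61.1 and 316 in BV-173, and 4.69 and 9.27 in NALM-6, where it lay below the level of 10 asked of named list genes. With DMSO *RGS1* was 622 in RS4;11, 1.87 in BV-173 and 3.22 in NALM-6 (as deposited), below the scrambled control of each line. The others were *ARRB1*, which encodes β-arrestin 1 (mean log2 ratio 1.01 ± 0.13), and the receptor kinase gene *GRK5* (0.86 ± 0.35). Of 22 migration effectors, all at levels between 385 and 24039, none was past 1.5-fold in all lines (medians of means 0.09 and 0.00). For both lists, the shares over all genes listed in all lines were 0.584% higher and 1.75% lower after knockdown. After palbociclib they were 4.53% and 5.95%, so a count of 0 is near these shares.

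**Figure D3:**
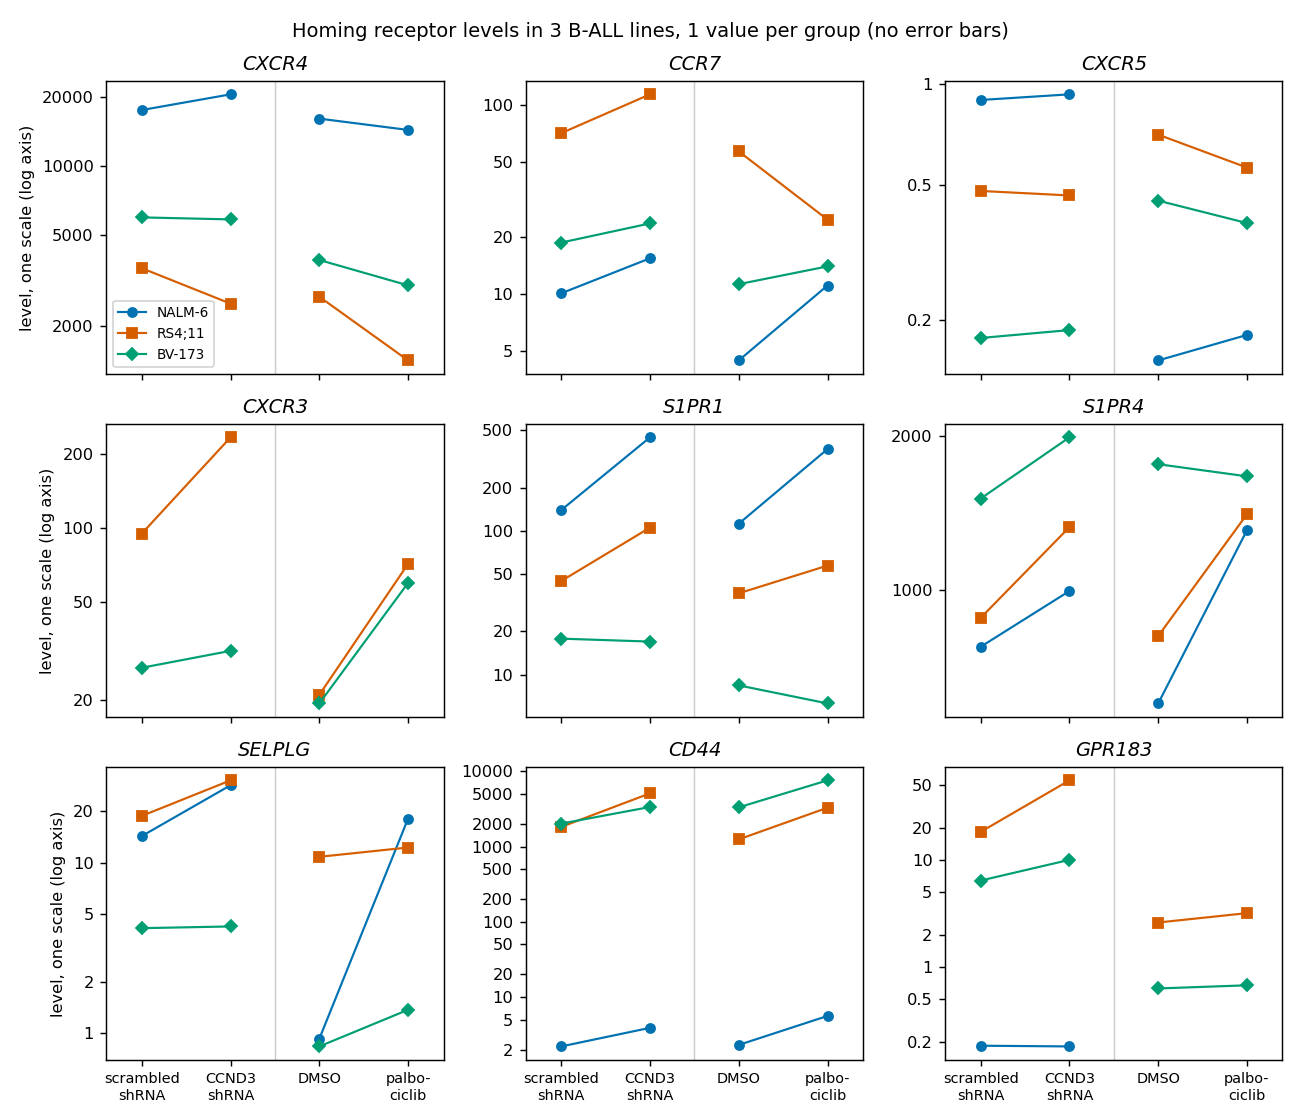
Levels of the 9 receptors on one scale (logarithmic axes, different for each panel) in the scrambled shRNA, *CCND3* shRNA, DMSO and palbociclib groups of the 3 cell lines (symbols as in the key), with lines joining a treated group to its control. Each point is 1 value per group, and a missing point is a gene not listed. *CXCR4* is highest in NALM-6, where *CD44* stays under 6, and the DMSO points of *SELPLG* and *GPR183* lie below the scrambled shRNA points of the same line.

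Both controls of a line gave a measure of how far levels moved without either treatment. On one scale, 20 of the 25 pairs of member and line that had both controls were higher with scrambled shRNA than with DMSO, 11 of them at least 1.5-fold, and 2 were at least 1.5-fold higher with DMSO. Over all 13307 genes, 8.97% to 14.2% per line were at least 1.5-fold higher with scrambled shRNA, and 3.70% to 10.3% with DMSO. The median log2 ratio of the 2 controls over these genes lay between -0.04 and 0.01 per line. The member counts include *CXCR5* at levels under 1. It was 0.896 with scrambled shRNA and 0.152 with DMSO in NALM-6, and 0.177 and 0.451 in BV-173. *CXCR4*, *CCR7*, *S1PR1* and *SELPLG* were higher with scrambled shRNA in all 3 lines. *GPR183* differed 7.02-fold in RS4;11 and 10.2-fold in BV-173, as far as 0.240% and 0.143% of all genes. The controls differed in transduction, cell sorting and day of collection, and these cannot be told apart.

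**Figure D4:**
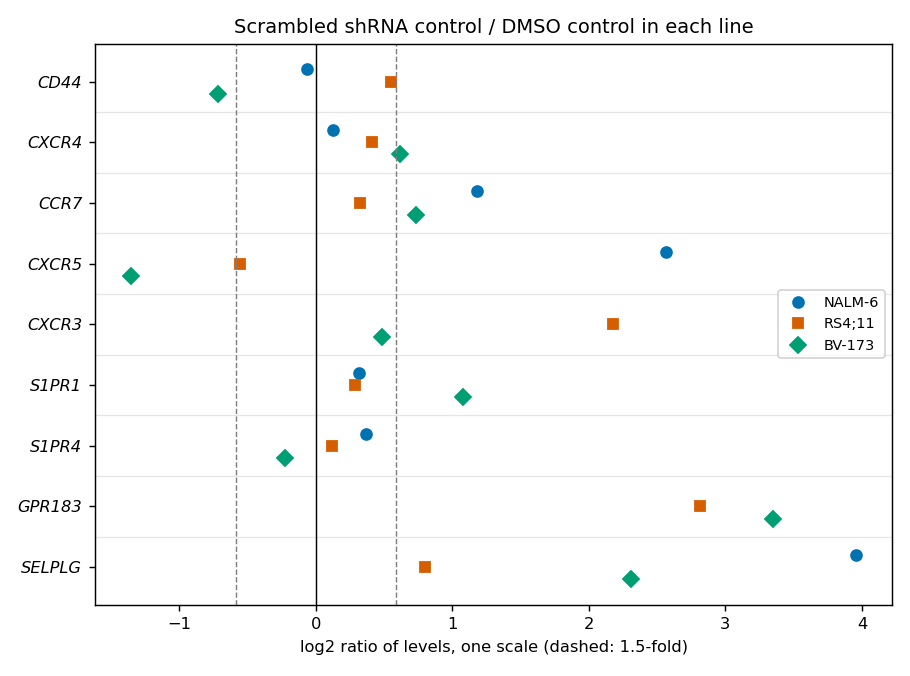
Log2 ratio of the scrambled shRNA control to the DMSO control on one scale for the 9 receptors (rows) in the 3 cell lines (symbols as in the key), with dashed lines at 1.5-fold. Each point is 1 ratio of 2 group levels. *SELPLG* reaches 3.96 in NALM-6 and *GPR183* 3.35 in BV-173, while the *S1PR4* points lie between -0.22 and 0.37.

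Levels also differed between the lines. For 5 of the 7 members listed in all tables, the ranges of both controls kept the 3 lines apart. *CXCR4* ran from NALM-6 over BV-173 to RS4;11, with a 5.45-fold distance between the means (geometric) of the highest and lowest line. *CCR7* ran from RS4;11 over BV-173 to NALM-6 (9.52-fold), *S1PR1* from NALM-6 over RS4;11 to BV-173 (10.2-fold) and *S1PR4* from BV-173 over RS4;11 to NALM-6 (2.38-fold). *CD44* ran from BV-173 over RS4;11 to NALM-6, a 1144-fold distance, with BV-173 (2018 and 3317) and RS4;11 (1822 and 1244) close to each other. The lines overlapped for *SELPLG* and for *CXCR5*. Some gaps were small: *S1PR4* was 777 in NALM-6 with scrambled shRNA and 815 in RS4;11 with DMSO. *CXCR4* was 3570 in RS4;11 with scrambled shRNA and 3879 in BV-173 with DMSO. *CCR7* was 10.1 in NALM-6 with scrambled shRNA and 11.3 in BV-173 with DMSO. With levels as deposited, *CXCR4* and *CCR7* no longer kept these lines apart. Each line has 2 differently handled control values of unknown spread.

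For each member listed in all tables, the genes most alike over the 12 groups were sought by Pearson's r of log2 levels among 10194 genes at a level of 10 or more throughout. The 12 groups share cell lines, so r mostly follows the difference between lines, and it is a description. *CXCR4* was most like *SLC25A37* (0.99), *TRIM37* (0.98) and *USP31* (0.97). *CD44* was most like *HPCAL1*, *RAB34* and *GSDME* (0.99 each), and *S1PR1* like *AGO3* (0.98), *CHST7* (0.98) and *TET2* (0.97). *CCR7* was most like *KLF13*, *TLR9* and *FBLN7* (0.94 each), and *S1PR4* like *ARRDC2* (0.95), *SDCCAG8* and *MIB2* (0.94 each). *SELPLG* was most like *G3BP1* (0.95), *SLC6A8* (0.91) and *SIK3* (0.88). For *CXCR5* the closest genes, *MSANTD2* (0.87), *ZNF780B* (0.80) and *SCYL3* (0.79), were compared with levels under 1.

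The labelled cell type was checked by marker genes. All 11 B-lineage markers examined were listed, with summed levels from 61154 to 131264 over the groups. *CD79A*, a part of the B-cell receptor, was the list's gene past 1.5-fold in all lines, higher after palbociclib (mean log2 ratio 1.13 ± 0.61), and none was so after knockdown (medians of means -0.08 and -0.11). In NALM-6 *CD79A* was 1870 with DMSO and 6621 with palbociclib, but 6295 with scrambled shRNA (as deposited). The palbociclib groups of RS4;11 (21607) and BV-173 (11402) lay above their scrambled controls (15584 and 5198). *MME* (CD10) was low in RS4;11, at most 6.70. The T-cell markers summed to at most 7.70, and the erythroid and platelet markers to at most 1.22. The myeloid markers summed to between 92.8 and 1168, with *CSF1R* at 145 with DMSO and 513 with palbociclib in BV-173, the NK-cell list to between 79.9 and 1895, led by *NKG7* with levels from 42.3 to 1872, and the stromal list to between 0.322 and 217, led by *COL1A1* with at most 216. None of these 5 lists held a gene past 1.5-fold in all 3 lines. At most 1.75% of all genes listed in all lines were so in 1 direction after knockdown and 5.95% after palbociclib. The part of these markers in the receptor values was not tested.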

How the data were processed

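The 34 samples were used in the 12 groups that their labels give. Reads were filtered with SOAPnuke, mapped with Bowtie2 to hg38, quantified with RSEM and compared with DESeq2 by the sequencing provider of the authors. Versions and the annotation are not given in the sources used here. The authors' deposited tables hold a signal for each of 2 groups (the level, on a scale common to both), beside their own fold changes, p-values and calls, which were not used. Design and tests had allowed for counts per sample, but the tables hold 1 value per group, so no test was run and the depth is unknown.

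The log2 ratio of both levels was taken without a pseudocount. One scale came from the median of ratios over 13307 genes (factors 0.925 to 1.09). Genes were matched by NCBI identifier and symbol. All 9 members are named, and list genes where they were past 1.5-fold in the same direction in all 3 lines with a level of at least 10 in each table, at most 5 per list and treatment. Some list genes are not reported here. The members and lists were chosen with earlier results of these data known. Alternatives were a 2-fold threshold, other scalings, a level of at least 10, pseudocounts of 1 and 10, the other control and leaving out a line. Steps were tested on simulated data. The software was pandas 2.3.3, numpy 2.4.6 and Python 3.11.15.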

Additional observations from a re-analysis of the deposited data

Results flagged for a closer look

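*CCR7* after palbociclib was past 1.5-fold in opposite directions in NALM-6 (log2 ratio 1.28, levels 4.60 with DMSO and 11.2 with palbociclib) and RS4;11 (-1.26, levels 60.3 and 25.2), a difference of 2.54 on the log2 scale. With 1 level per group this difference was not tested. It was the only case among the members of both treatments.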

How the results depend on the processing

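No paired analysis was possible because the tables give 1 level per group, so leaving out a replicate and a replicate block were not run, and precision at low levels is unknown. At 2-fold, 5 pairs were higher after knockdown and 1 lower after palbociclib. With a level of 10 or more in both columns, 7 pairs were higher after palbociclib, and a pseudocount of 10 left 7 higher after knockdown. The median taken out or one scale kept each count within 1.5 times.

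The other control moved most: 19 pairs were then higher and 2 lower after knockdown, and 9 lower after palbociclib. The mean log2 ratio of *SELPLG* after palbociclib turned to -0.62, and its knockdown less palbociclib difference to 3.55. Means after knockdown became 0.28 (*CXCR4*), 1.29 (*CCR7*), 0.25 (*CXCR5*), 0.53 (*S1PR4*), 2.93 (*SELPLG*) and 1.51 (*S1PR1*), and those after palbociclib 1.37 (*CD44*), 0.09 (*S1PR1*), -0.60 (*CCR7*, from 0.10) and -0.87 (*CXCR4*). Differences became 1.16 (*CXCR4*), 1.89 (*CCR7*), 0.57 (*CXCR5*) and 1.42 (*S1PR1*). Pseudocounts of 1 and 10 gave *CD44* after palbociclib 1.16 and 0.94, and 10 gave *SELPLG* 0.50 after palbociclib in place of 1.69 and a difference of -0.13 in place of -1.15. With levels as deposited, 3 members in place of 5 kept the lines apart, in the same order for all 7. The other control is a differently handled group, and the cause of the remaining shifts was not tested. Of 183 recomputed means and differences, 169 stayed within 1 SD over lines, among them all that left out a line, which cannot move a mean of 3 by its whole SD. The 8 that asked for a level of 10 or more repeated the main values. Where the SD was wide, large shifts also counted as within it, such as those after palbociclib of *SELPLG* to 0.50 (SD 2.24) and *CCR7* to -0.60 (SD 1.28). The count of 169 is therefore not read as a measure of stability.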

Other observations

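Several related genes differed strongly in 1 line and were picked after their values were seen. *CCR6*, the receptor for CCL20, was 23.1 with DMSO and 286 with palbociclib in BV-173, 12.4-fold higher, while its log2 ratio was 0.60 in NALM-6 and -0.56 in RS4;11. *ACKR4*, a scavenger of the CCR7 ligands, was 421 and 955 in RS4;11 with DMSO and palbociclib and 325 and 580 with scrambled and *CCND3* shRNA, and it stayed under 6 in NALM-6 and BV-173. *S1PR3* was lower in NALM-6 after both treatments, from 422 to 184 after knockdown and from 340 to 134 after palbociclib, in the line in which *S1PR1* was higher after both.

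*SPP1*, which encodes osteopontin, a ligand of CD44 and integrins, was 645 with scrambled and 2805 with *CCND3* shRNA in NALM-6, 4.35-fold higher, but 491 and 401 with DMSO and palbociclib, and it was near 1 or lower in the other lines. *GCNT1*, which branches the sugar chains of PSGL-1, was 4.18-fold higher in RS4;11 after knockdown (129 and 540) and 2.58-fold higher after palbociclib (128 and 330). *FUT7*, which adds the fucose needed for selectin binding, was 914 and 620 in RS4;11 and 1648 and 1994 in BV-173 for the knockdown pair, and under 22 in NALM-6.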
